A study of Elaeis guineensis with 10 samples.

Results

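The most abundant transcripts of the young oil palm leaf were described as the 100 gene stems with the highest mean CPM (counts per 1000000 assigned reads) over 10 palms. They were taken from 25371 stems that could enter, of 26087 stems in all. A stem is the ID of a counting unit without its last number, and where an ID follows the naming of the MAKER annotator it is the part before the transcript suffix. Stems of 15 or more units (716 of them, with 1.34% to 2.03% of reads) were left out of the ranking. The rule used the mean level over all palms. It did not use the fruit phenotype, but a mean can be set by 1 very high palm. Chosen without palm 5 of the normal group, the list loses 8 stems, all of them highest in that palm, so for these the direction between phenotypes was fixed by the choice.

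The palms are Elaeis guineensis clones of 1 ortet, the mother palm from which tissue culture plants are raised, and RNA came from leaf labelled frond 0. The group called mantled holds 5 palms that bear mantled fruit (replicates 1 to 5 are palms 673, 687, 754, 765 and 770). The group called normal, the reference of the design, holds 5 palms that bear normal fruit (palms 753, 758, 764, 767 and 768). Palms are named below by phenotype and replicate, as mantled 1 or normal 5. All 10 are clonal plants of the same origin, so they model 1 genotype. The labels give no age, batch, sampling date or treatment, and each palm is 1 library. The p-values set the difference between phenotypes against the spread of libraries within them, in which palm and library cannot be told apart.

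The mantled phenotype arises in some palms raised by tissue culture, whose stamens turn into carpel-like organs around the fruit. Fronds of the oil palm emerge one after another from the crown as spears, and growers number them by age. In leaf cells of plants in general, transcripts of photosynthesis and of protein synthesis are among the most abundant. The count tables here pair no ID with a gene name, and 0 of them were found among the genes that RefSeq lists for the species (EG11 assembly). The stems are therefore given by ID, with no name, role, sequence or position, and neither leaf markers nor pathway lists could be applied to them.

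The palms had 10236532 to 12544294 assigned reads each, which was 40.7% to 43.6% of the reads listed. Reads that touched more than 1 unit made up 18.2% to 20.6% and were not assigned. Each of the 100 stems had at least 119 reads in every palm. Plain CPM scales a stem's reads to all assigned reads of the palm, without division by transcript length, so the ranking is one of read share and not of transcript number per cell. Values in the palms below are CPM scaled by TMM factors, which correct for a few abundant genes taking a large part of a library. The factors ran from 0.754 in normal 5 to 1.11 in normal 3. Division by its low factor raises every value of normal 5, so which palm is called highest or lowest can depend on this scaling. In a bulk sample, fewer cells of a type and less RNA per cell cannot be told apart.

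A small number of stems held a large part of the reads. On average over palms the highest stem held 0.676% of the assigned reads, the 10 highest held 3.85%, the 50 highest 10.8% and all 100 together 15.9%. The 100 stems were 0.394% of those that could enter. A further 100 stems would have raised the share to 22.5%, and 1000 stems to 45.9%. There was no gap at the end of the list. Rank 99 (p5_sc00075_cds_204) had a mean of 835 plain CPM and rank 100 (maker-p5_sc00017-augustus-gene-52.59) had 830.2, while the next stems below, p5_sc00182_cds_71 and p5_sc00128_cds_33, had 829 and 822.

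The share of the 100 stems differed by more than 2-fold between palms. It was 16.7%, 12.7%, 15.7%, 14.7% and 13.8% of reads in mantled 1 to 5, and 18.8%, 13.5%, 11.5%, 16.2% and 25.3% in normal 1 to 5. Both the lowest palm, normal 3, and the highest, normal 5, bore normal fruit, and all mantled palms lay between them. The means were 14.7 ± 1.6% in mantled and 17.1 ± 5.4% in normal palms (SD, n = 5 each), a difference of -2.38 percentage points that did not exceed the palm-to-palm spread (two-sided exact permutation p = 0.429; adjusted p = 0.429 over 3 shares tested). Without normal 5 the normal mean was 15.01% and the difference was -0.321 percentage points.

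The 10 highest stems showed the same order of extremes. They held 3.89%, 2.42%, 3.42%, 3.29% and 2.54% of reads in mantled 1 to 5, and 5.12%, 2.62%, 2.20%, 3.87% and 9.16% in normal 1 to 5. The difference in means was -1.48 percentage points (exact two-sided permutation p = 0.302; adjusted p = 0.429), and -0.337 without normal 5. The single highest stem held 0.586 ± 0.31% in mantled and 0.766 ± 0.28% in normal palms (exact two-sided permutation p = 0.341; adjusted p = 0.429). None of the 3 shares separated the phenotypes.

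**Figure D1:**
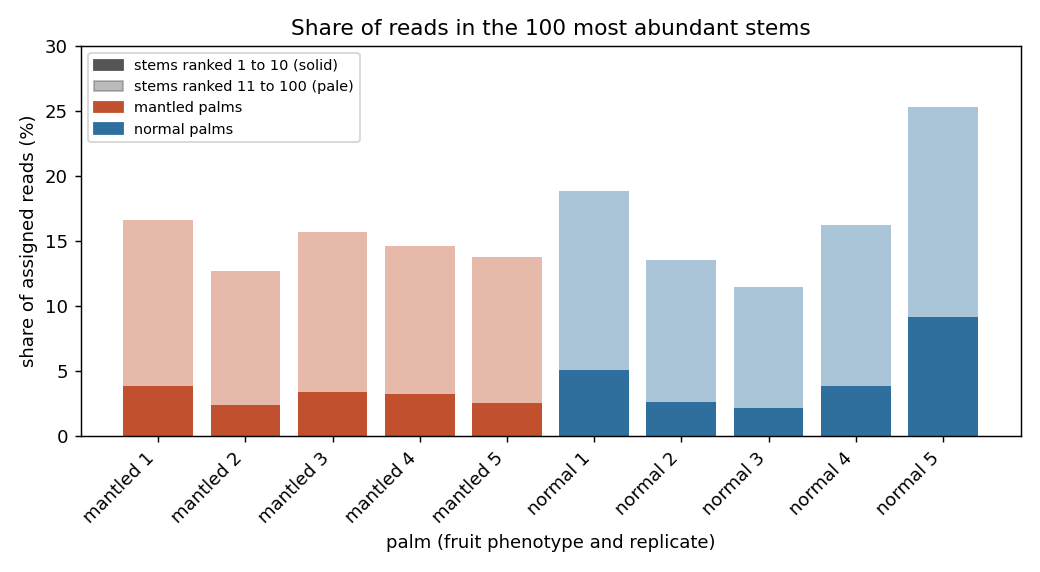
Share of assigned reads (%, vertical axis) held by the 10 highest stems (solid) and by the stems ranked 11 to 100 (pale) in each of the 5 mantled and 5 normal palms. The whole bars run from 11.5% in normal 3 to 25.3% in normal 5, with the mantled palms from 12.7% to 16.7%.

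The 10 highest stems differed widely in their range over the palms. The highest of all, maker-p5_sc00003-snap-gene-10.64 on scaffold 3, had 5963, 3308, 6604, 10704 and 2409 CPM in mantled 1 to 5 and 11177, 5276, 4401, 6371 and 14189.8 CPM in normal 1 to 5. It was the first in rank in 5 palms and never lower than rank 12. Its high palms were normal 5, normal 1 and mantled 4 and its low palms mantled 5 and mantled 2, so the phenotypes overlapped. The second, maker-p5_sc00184-augustus-gene-13.33 on scaffold 184, had 6196, 5835, 4836, 3367 and 4377 CPM in mantled 1 to 5 and 7243, 4631, 3369, 6417 and 7505 CPM in normal 1 to 5. Its values lay within a 2.23-fold range, with mantled 4 and normal 3 lowest.

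The third, p5_sc00217_cds_14 on scaffold 217, summed 9 units, of which the highest held 36.8% of its reads. It had 8809, 2428, 5463, 3259 and 5255 CPM in mantled 1 to 5 and 4651, 4053, 3878, 5569 and 3178 CPM in normal 1 to 5. Mantled 1 was highest and mantled 2 lowest, so both ends of its 3.63-fold range were mantled palms. Stem maker-p5_sc00019-snap-gene-51.59, sixth in rank, had 4978, 2843, 3066, 2065 and 2667 CPM in mantled 1 to 5 and 3578, 2945, 2202, 3883 and 3346 CPM in normal 1 to 5. Its groups had nearly the same mean, at means of 3124 ± 1101 (mantled) and 3191 ± 650.3 CPM (normal; SD, n = 5 per phenotype).

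The ninth, p5_sc00003_cds_925, had 2508, 2828, 2160.2, 1962 and 2758 CPM in mantled 1 to 5 and 3966, 2527, 2881, 2019.9 and 4565 CPM in normal 1 to 5. Its mantled palms lay between 1962 and 2828 CPM, with normal 1, 3 and 5 above them and normal 2 and 4 among them. The tenth, p5_sc00007_cds_478, had 3400.4, 1179.8, 3838, 2975 and 3399.5 CPM in mantled 1 to 5 and 3972, 2191, 1419.5, 3261 and 1728 CPM in normal 1 to 5. Mantled 2 was the lowest palm, followed by normal 3 and normal 5.

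The other 4 of the 10 highest stems were highest in normal 5, by 2.62- to 7.44-fold over the next palm. Stem maker-p5_sc00001-augustus-gene-87.59, ranked 4, had 2668, 835, 2370.5, 1737 and 838 CPM in mantled 1 to 5 and 4379, 806, 622, 2540.4 and 28402 CPM in normal 1 to 5. It was the most abundant stem of normal 5 with 2.14% of that palm's reads, 6.49-fold above the next palm, and ranked between 5 and 119 in the others. Stem maker-p5_sc00013-augustus-gene-9.40, the fifth, had 2058, 1464, 2036, 3148 and 995 CPM in mantled 1 to 5 and 4099.9, 1361, 748, 3919 and 16158 CPM in normal 1 to 5. Normal 5 was 3.94-fold above the next palm, normal 1.

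Stem p5_sc00001_cds_65, the seventh, had 1607, 366, 2747, 2036 and 164 CPM in mantled 1 to 5 and 7182, 516, 128, 2092 and 18789.7 CPM in normal 1 to 5. Its range over palms was 147-fold, and still 56.0-fold without normal 5, since mantled 5 and normal 3 were both low and normal 1 was high. Stem p5_sc00039_cds_316, the eighth, had 975, 1035, 1032, 2128 and 811 CPM in mantled 1 to 5 and 3197, 599.8, 215, 1818 and 23780.2 CPM in normal 1 to 5. It ranked second in normal 5 and 744th in normal 3, both palms with normal fruit.

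**Figure D2:**
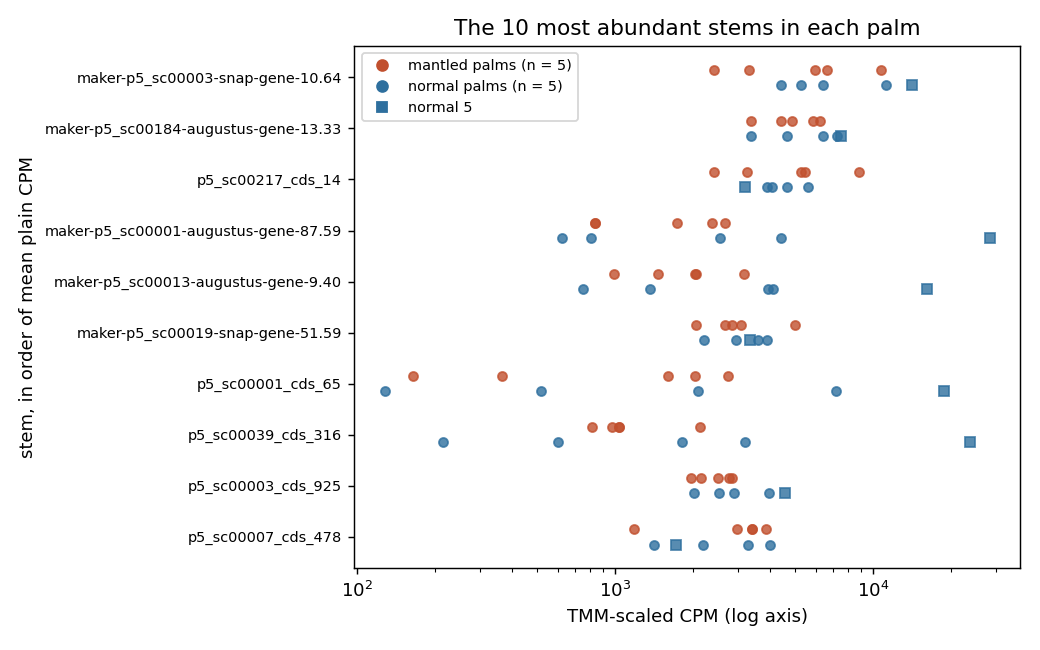
TMM-scaled CPM (log axis) of the 10 stems with the highest mean plain CPM, 1 point per palm, mantled above and normal below each line, with normal 5 as a square. In 4 stems normal 5 lies far to the right, up to 28402 CPM, and in all 10 the mantled and normal palms overlap.

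The list was only partly the same from palm to palm. Of the 100 stems, 23 were among the 100 highest of every palm, 7 among those of 9 palms, 50 among those of 5 to 8 palms and 20 among those of 1 to 4 palms. A single palm held 61 (normal 3 and normal 5) to 81 (normal 1) of them in its own 100 highest. In all, 269 stems were among the 100 highest of some palm. Chosen on the mantled palms alone and on the normal palms alone, the lists of 100 shared 79 stems, and 85 when normal 5 was left out. Choosing the list without normal 5 kept 92 of the 100, where leaving out any other palm kept 96 to 98.

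The range over palms, as the highest over the lowest TMM-scaled CPM, divided the 100 stems into 4 classes. It was under 2-fold for 12 stems, 2- to 5-fold for 46, 5- to 10-fold for 16 and at least 10-fold for 26. The median range was 3.66-fold, where all 18030 stems tested had 3.15-fold, and the median coefficient of variation (CV, SD over mean of the 10 palms) was 0.402, where all stems tested had 0.362. A range of at least 10-fold was found in 26% of the abundant stems and 11.1% of all stems tested. A list ranked by the mean takes up stems that are very high in a single palm, so the wide end is partly fixed by the choice. With normal 5 left out of the range, 21 of the 100 had at least a 10-fold range, as did 1500 of the 18030 stems tested. The list was not chosen anew for this count. It thus keeps stems that entered only through normal 5, such as p5_sc00001_cds_1887 and p5_sc00058_cds_13.

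**Figure D3:**
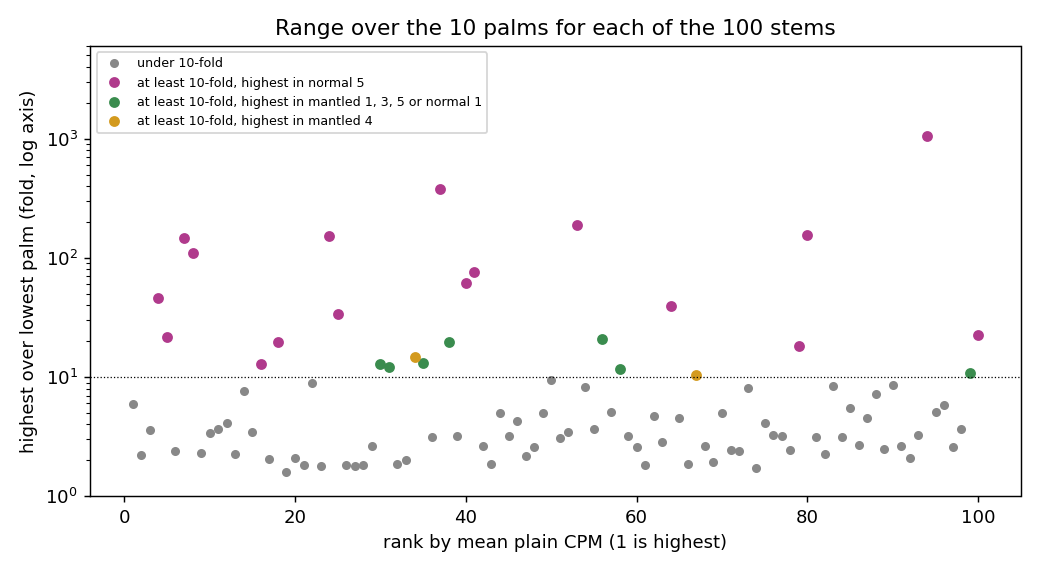
Highest over lowest TMM-scaled CPM among the 10 palms (fold, log axis) against rank by mean plain CPM, 1 point per stem. Grey points are the 74 stems under 10-fold; coloured points are the 26 others, by the palm where each was highest, and they reach 1055-fold.

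The steadiest stems were as abundant as many of the variable ones. Stem p5_sc00003_cds_326 on scaffold 3, 19th in rank, had 2433, 1933, 2263, 1539 and 2251 CPM in mantled 1 to 5 and 2041, 2343, 1691, 2442 and 2481 CPM in normal 1 to 5, a 1.61-fold range. Its lowest palm was mantled 4 and its highest normal 5. In plain CPM its highest palm was normal 4, at 2495, and normal 5 had only 1868. Stem p5_sc00039_cds_24 on scaffold 39 had 1138, 1076, 1034, 1079.5 and 952 CPM in mantled 1 to 5 and 676, 894, 1022, 1108 and 1164 CPM in normal 1 to 5, and its CV of 0.142 was the lowest of the 100. Here normal 1 was low and the other palms lay close together.

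Stem p5_sc00033_cds_6 had 2363, 1521, 1919, 1329 and 1774 CPM in mantled 1 to 5 and 1654, 1673, 1588, 1930.2 and 1993 CPM in normal 1 to 5. Mantled 1 was its highest palm and mantled 4 its lowest. Stem snap_masked-p5_sc00148-processed-gene-0.23 had 1448, 1840.1, 1782, 1897 and 1465 CPM in mantled 1 to 5 and 1614, 1743, 1145, 2051 and 2037 CPM in normal 1 to 5, with normal 3 lowest and normal 4 and 5 highest. Stem p5_sc00038_cds_201 had 2223, 1482, 1736, 1259.9 and 1240.0 CPM in mantled 1 to 5 and 1832, 1510.4, 1321, 2279.7 and 2128 CPM in normal 1 to 5, a 1.84-fold range.
The 12 stems under 2-fold held 1.52% to 2.11% of the reads of each palm. Of these 12, 8 were among the 100 highest of every palm.

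The 26 stems with at least a 10-fold range mostly followed 1 of 2 patterns over the palms. These patterns were read from the values and are described without a test. In the larger set, 17 stems were highest in normal 5. In 15 of the 17 the second highest palm was normal 1, and in 12 the 4 lowest palms were mantled 2, mantled 5, normal 2 and normal 3. The median of the 17 was 770.2, 339, 1056, 1195 and 205 CPM in mantled 1 to 5, and 2240.5, 439, 181, 913 and 9791 CPM in normal 1 to 5. Both phenotypes were thus found among the palms with high and with low values.

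These 17 stems held 14.4% of the reads in normal 5 and 4.28% in normal 1. In the other palms they held 0.581% (mantled 5) to 2.62% (mantled 4). The 74 stems under 10-fold held 9.92% to 13.2% of reads, and 10.4% in normal 5. The 17 were grouped by their high values in normal 5, so their share there is a description. Of the 74, a further 19 were highest in normal 5 by TMM-scaled CPM. That scaling raises the values of normal 5, and nothing is read from this count.

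Among the 17, stem p5_sc00001_cds_1887 on scaffold 1 varied most, with 201, 34.1, 120.0, 113 and 9.28 CPM in mantled 1 to 5 and 489.8, 19.6, 17.7, 116 and 9791 CPM in normal 1 to 5. It ranked 10th in normal 5, 284th in normal 1 and 11273rd in mantled 5, and its range of 1055-fold fell to 52.8-fold without normal 5. Stem p5_sc00058_cds_13 on scaffold 58 had 539, 292, 255, 409 and 145 CPM in mantled 1 to 5 and 952, 94.6, 41.1, 296 and 15434 CPM in normal 1 to 5. These were the 2 stems of the list that were among the 100 highest of only 1 palm.

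Stem p5_sc00001_cds_208 had 355, 189.8, 513, 1164 and 102.01 CPM in mantled 1 to 5 and 1198, 345, 53.4, 913 and 10079.5 CPM in normal 1 to 5. Stem p5_sc00059_cds_145, with 7 units, had 900.1, 123, 1873, 1109 and 76.3 CPM in mantled 1 to 5 and 2977, 154, 122, 1479.6 and 11559 CPM in normal 1 to 5. In both, normal 5 was highest and normal 3 or mantled 5 lowest, and without normal 5 the ranges were 22.4-fold and 39.03-fold.

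Stem maker-p5_sc00062-augustus-gene-13.52 had 770.2, 156, 1056, 478 and 31.7 CPM in mantled 1 to 5 and 2240.5, 68.4, 84.5, 885 and 4913 CPM in normal 1 to 5. The stem whose ID follows it by 1, maker-p5_sc00062-augustus-gene-13.53, was also on the list and in the same set, with 370.1, 366, 554, 1696 and 135 CPM in mantled 1 to 5 and 2093, 727, 235, 776 and 5347 CPM in normal 1 to 5. Over the 10 palms, which share normal 5 as the highest value, Pearson's r of their log2 CPM was 0.80. In 2 other pairs of members with close IDs it was 0.79 (p5_sc00001_cds_1887 and p5_sc00001_cds_1892) and 0.43 (p5_sc00454_cds_13 and p5_sc00454_cds_22). Stems p5_sc00001_cds_1887 and p5_sc00001_cds_1892 were also both highest in normal 5, and p5_sc00001_cds_1887 entered the list only through that palm. A shared high palm can raise r, so nothing is read from r in these pairs. Whether these IDs are similar copies that could share reads cannot be told from the tables.

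In 2 of the 17 the second highest palm was not normal 1. In maker-p5_sc00002-augustus-gene-55.45 it was mantled 4. The other was maker-p5_sc00027-augustus-gene-10.40, with 426, 4706, 581, 4026 and 549 CPM in mantled 1 to 5 and 1378, 3393, 2519.6, 638 and 5539.7 CPM in normal 1 to 5. Normal 5 was only 1.18-fold above mantled 2, and mantled 1, 3 and 5 and normal 4 were low. In plain CPM mantled 2 was its highest palm, at 5144 against 4171 in normal 5. Its low palms were also low in the stems highest in mantled 4, described below, so its place among the 17 rests on the scaling.

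In the second set, 7 stems were highest in mantled 1, 3 or 5 or in normal 1. In all 7 the 5 highest palms were mantled 1, 3 and 5 and normal 1 and 4, and the 5 lowest were mantled 2 and 4 and normal 2, 3 and 5. Their median was 2722, 241, 2511, 504 and 2763 CPM in mantled 1 to 5, and 2436, 572, 290.4, 1686 and 359.8 CPM in normal 1 to 5. An example is maker-p5_sc00003-augustus-gene-6.63, 38th in rank, with 2986, 150.3, 2699, 504 and 2810.2 CPM in mantled 1 to 5 and 2436, 557, 290.4, 1885 and 173 CPM in normal 1 to 5. Their ranges were 10.9- to 20.9-fold and none rested on normal 5, since all 7 stayed above 10-fold without it.

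The remaining 2 stems were highest in mantled 4. Stem maker-p5_sc00008-augustus-gene-11.53 had 307, 773, 319, 4526 and 305 CPM in mantled 1 to 5 and 532, 2947, 2914, 486 and 1624 CPM in normal 1 to 5. Stem maker-p5_sc00002-snap-gene-7.89 had 249, 1115, 313, 2566 and 355 CPM in mantled 1 to 5 and 576, 1476, 1939.9, 436 and 1769 CPM in normal 1 to 5. Both were low in the same palms, mantled 1, 3 and 5 and normal 1 and 4, in which the second set was high.

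**Figure D4:**
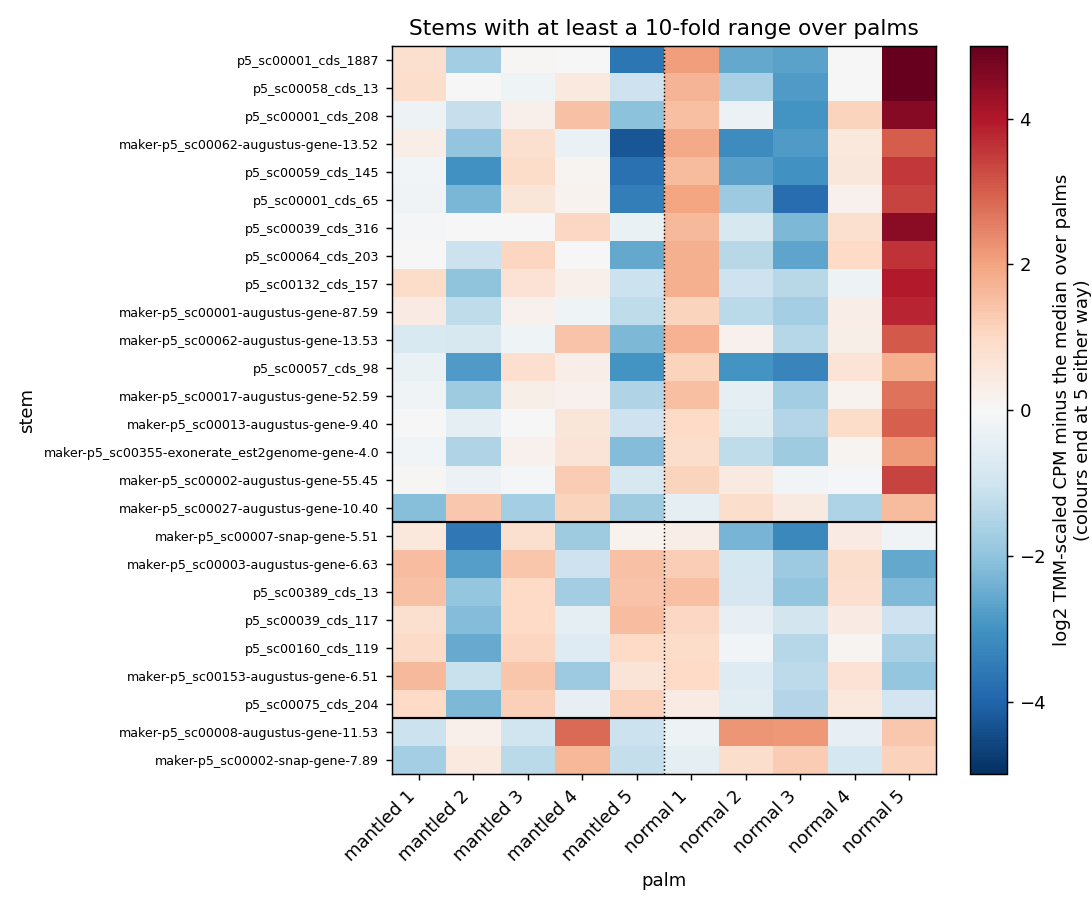
Log2 TMM-scaled CPM minus the stem's median over palms (colour) for the 26 stems with at least a 10-fold range, in rows, and the 10 palms, in columns. Lines part the 17 stems highest in normal 5, the 7 highest in mantled 1, 3, 5 or normal 1, and the 2 highest in mantled 4; each set has mantled and normal palms on both sides of its median.

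No abundant stem differed between mantled and normal leaves in the test across all stems. With edgeR's quasi-likelihood test, adjusted by Benjamini-Hochberg, 0 of the 100 passed 0.05, as did 0.0% of the 18030 stems tested (0 stems). The lowest adjusted p was 0.9999. Limma-voom also called 0 of the 100, and DESeq2 called 0 of the 98 to which it gave a p-value. It gave none to p5_sc00001_cds_1887 and p5_sc00058_cds_13. At an unadjusted p under 0.05 there were 4 of the 100, all lower in mantled palms, where 0.749% of all stems tested reached it in either direction 0.46% in that direction and 0.288% in the other. All 4 belonged to the set highest in normal 5, and without normal 5 the count was 0, where 0.554% of all stems reached that level. Of the 4, p5_sc00001_cds_1887 and p5_sc00058_cds_13 entered the list only through normal 5, so their direction was fixed by the choice and nothing is read from the count of 4. In DESeq2 the count was 10 of 98, where 1.11% of all stems reached that level, and in limma-voom with quality weights 24 of 100, where 26.0% did.

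The log2 differences of the 100 stems, mantled minus normal, had a median of -0.07, where all stems tested had 0.01. They were positive for 40 stems and negative for 60, where 51.1% of all stems tested were positive. All 17 stems of the set highest in normal 5 were negative, and that palm helped to choose the list, so nothing is read from this split. The median of the 100 was 0.03 with plain library sizes, which moved that of all stems tested to 0.09, and 0.10 in limma-voom, so its sign depended on the setting. In no stem did the values of the 5 mantled palms lie wholly above or below those of the 5 normal palms, so the count was 0 of 100, and over all stems tested it was 0.0887% (0.0499% with the mantled palms above and 0.0388% with them below).

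The 4 stems at an unadjusted p under 0.05 had wide errors. Stem p5_sc00001_cds_1887 had means of 95.5 ± 76.3 (mantled) and 2087 ± 4311 CPM (normal; SD, n = 5 per phenotype), its log2 difference was -4.45 (standard error 1.68) and its edgeR p 0.0218. Without normal 5 the log2 difference was -0.77. Stem p5_sc00058_cds_13 had means of 328 ± 151 (mantled) and 3364 ± 6757 CPM (normal; SD, n = 5 per phenotype), its log2 difference was -3.36 (standard error 1.38) and its edgeR p 0.0321, and without normal 5 it was -0.09. The others were p5_sc00039_cds_316, at -2.31 (standard error 1.04) with an edgeR p of 0.0466, and maker-p5_sc00001-augustus-gene-87.59, at -2.12 (standard error 0.97) with an edgeR p of 0.0493. Without normal 5 these were -0.31 and -0.32. The adjusted p was 0.9999 for each of the 4, and in limma-voom their log2 differences were positive, from 0.10 to 0.64.

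On the positive side, p5_sc00075_cds_204 and p5_sc00049_cds_335 had the smallest p-values. The first had 1415, 148, 1601, 528 and 1562 CPM in mantled 1 to 5 and 937, 471, 255, 1016 and 359.8 CPM in normal 1 to 5, and its log2 difference was 0.79 (standard error 0.61) with an edgeR p of 0.222. Mantled 1, 3 and 5 were its highest palms and mantled 2 its lowest. It was 1 of the 7 wide-range stems whose high palms were mantled 1, 3 and 5 and normal 1 and 4. All 7 had a positive log2 difference. They were grouped by their high palms, so nothing is read from that direction. Stem p5_sc00049_cds_335, 14th in rank, had 4463, 812, 3981, 1022 and 4757 CPM in mantled 1 to 5 and 3306, 1520.2, 1214, 2303 and 624 CPM in normal 1 to 5, and its log2 difference was 0.75 (standard error 0.60) with an edgeR p of 0.235. Mantled 1, 3 and 5 were high here too, while mantled 2 and 4 lay among the lower normal palms. The adjusted p was 0.9999 for both in edgeR, and 0.12 in limma-voom, which gave mantled 2 a weight of 0.264 and mantled 4 a weight of 0.436. In limma-voom 0.12 was the lowest adjusted p of all stems, and 26.0% of all stems had an unadjusted p under 0.05.

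The errors set what the comparison could show for these stems. The median standard error of the log2 difference was 0.41 over the 100 and 0.34 over all stems tested. A 2-fold change, up or down, lay outside the unadjusted 95% interval in 39 of the 100, and a 4-fold change in 74, where the shares over all stems tested were 54.7% and 93.0%. Among the steadiest, p5_sc00039_cds_24 had a log2 difference of 0.12 (standard error 0.26), with an interval from -0.45 to 0.68, and p5_sc00033_cds_6 one of 0.01 (standard error 0.28), with an interval from -0.60 to 0.62. The highest stem of all, maker-p5_sc00003-snap-gene-10.64, had means of 5798 ± 3257 (mantled) and 8283 ± 4214 CPM (normal; SD, n = 5 per phenotype) and its log2 difference was -0.51 (standard error 0.50), so that a 2-fold lower level in mantled palms lay within its interval (-1.61 to 0.58).

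**Figure D5:**
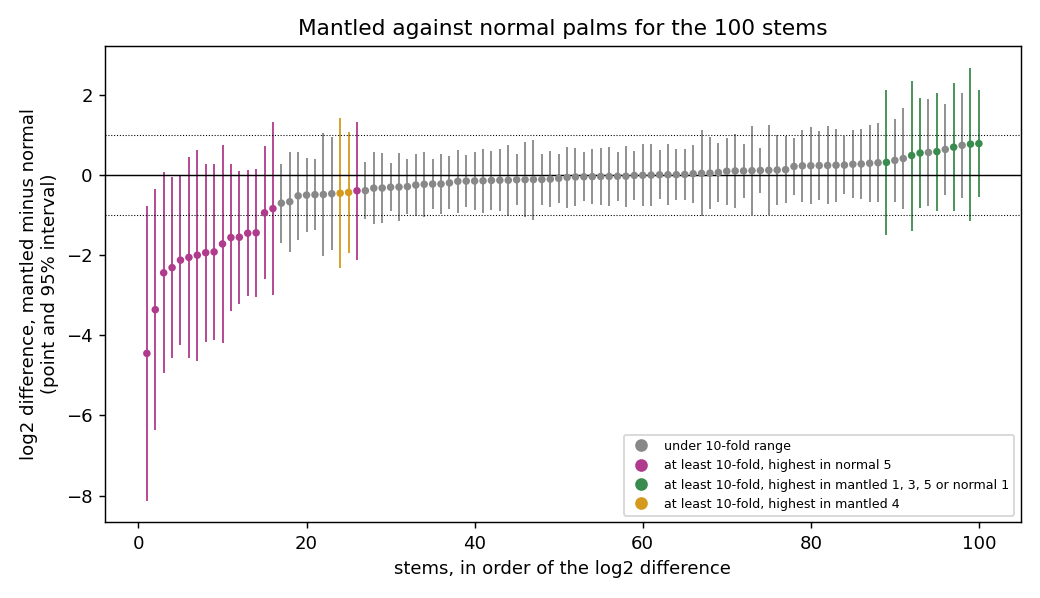
Log2 difference, mantled minus normal, with its unadjusted 95% interval for each of the 100 stems in order of size; dotted lines mark 2-fold. The 4 intervals that exclude 0 all belong to stems highest in normal 5, and the differences run from -4.45 to 0.79.

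The IDs of the 100 stems were also compared with those of the stems that could enter. Stems of a single unit made up 62% of them, where 42.3% of the stems that could enter had 1 unit. Reads over more than 1 unit went unassigned, so stems of several units could lose reads that stems of 1 unit kept, and the part of this in the ranking was not tested. IDs in the MAKER style made up 41% of the list and 30.3% of the stems that could enter. All stems in the MAKER style had 1 unit, so these features overlap. Among IDs not in that style, 21 of 59 on the list had 1 unit. The same held for 3034 of 17678 such stems that could enter, and for 1764 of the 11223 also tested. Among stems that could enter and were also tested, 45.6% had 1 unit and 35.5% were in the MAKER style. The MAKER-style share of the list, 41%, lay near the latter, so nothing is read from it. Of the 26 stems with at least a 10-fold range, 21 had a single unit, as did 7 of the 12 under 2-fold. In the 38 stems with several units the highest unit held 35.6% to 99.9% of the reads, with a median of 74.5%.

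The list was spread over 66 scaffolds, of which 48 carried 1 of the stems and 18 more than 1. Scaffold 1 carried 9 of them, with 926 stems that could enter, and scaffold 3 carried 5, with 442. Scaffold 49 carried 4, with 168. Of the 9 on scaffold 1, 5 were highest in normal 5 by TMM-scaled CPM (maker-p5_sc00001-augustus-gene-87.59, p5_sc00001_cds_65, p5_sc00001_cds_208, p5_sc00001_cds_1887 and p5_sc00001_cds_1892), as were 36 of all 100. In plain CPM p5_sc00001_cds_1892 was highest in normal 1, at 1444, with 1295 in normal 5. The scaling raises the values of normal 5, and that palm helped to choose the list. No share over all stems is given for stems highest in normal 5, so nothing is read from either count.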

How the data were processed

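Deposited values are raw counts per counting unit, 1 table per palm, not normalised by the authors. RNA was purified with a plant kit, DNA was digested and KAPA stranded libraries were sequenced paired-end (125 bp), per the labels' protocols. Tools, per the submitters' processing notes, were HTSeq 0.6.1p1, TopHat2 2.0.13, FastQC 0.11.3 and Trim Galore 0.4.0. Build, strand setting and parameters: not given in the sources used here, so antisense models and similar copies cannot be told apart. The 5 classes of unassigned reads were dropped.

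The 100342 units were summed to 26087 stems. Members and named stems were chosen with earlier results of these data known. Named stems are the 10 highest by mean plain CPM, the 5 widest and 5 narrowest ranges, and the 2 smallest p-values in each direction, and the 4 stems about the list's end; other stems were named after their values were seen. The test was that of edgeR 4.0.16, run in R 4.3.3 (filterByExpr, 18030 stems kept, TMM, robust quasi-likelihood F test, two-sided, no covariate, Benjamini-Hochberg over all stems tested, threshold 0.05). It was checked on simulated data. Standard errors are the log2 difference divided by the square root of F. Shares were compared by exact permutation over 252 assignments. DESeq2 1.42.0 and limma 3.58.1 (voom) were alternatives. Libraries within a group differed beyond sampling noise (chi-square per degree of freedom at least 24.6). Counts carry no molecular identifiers, so they are reads or read pairs and not molecules.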

Additional observations from a re-analysis of the deposited data

Results flagged for a closer look

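Within each phenotype, 50 sets of 5 values (3 read shares and 22 named stems) were screened for 1 palm far away from its group, and 2 such palms turned up; by chance about 1 in 20 sets has one. Stem p5_sc00039_cds_316 had a log2 TMM-scaled CPM of 11.06 in mantled 4, where the other mantled palms had 9.66 to 10.02. Stem p5_sc00007_cds_478 had 10.20 in mantled 2, where the other mantled palms had 11.54 to 11.91. Normal 5 was not among these palms. The screen flags a palm only where its gap to the next exceeds 0.71 of the range of the 5. A far palm can thus go unflagged where the other palms also spread widely. The absence of normal 5 here does not mean that it lay close to the other normal palms.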

How the results depend on the processing

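The members were also chosen without normal 5, and the count with a 10-fold range was recomputed with each palm left out, both added after seeing the data. The number of abundant stems called stayed at 0 in 18 alternatives, and that of all stems at 0 in 16; the lowest adjusted p over these was 0.12, in limma-voom. The count of abundant stems with an unadjusted p under 0.05 moved more. From 4 of 100 (all stems 0.749%) it became 2 with plain library sizes (all stems 0.671%), 10 of 98 with DESeq2 (1.11%), 24 with limma-voom (26.0%), 2 with members chosen without normal 5, and 0 to 12 with 1 palm left out. Without normal 5 it was 0 (all stems 0.554%), without normal 3 it was 12 (1.28%), without normal 2 it was 9 (0.707%) and without normal 4 it was 5 (1.79%). Without mantled 4 it was 8 (3.25%), without mantled 3 or 5 it was 1 (0.335% and 0.302%), and without mantled 1, mantled 2 or normal 1 it was 2 (0.367%, 3.22% and 0.981%). The count without overlap was 0 to 1 with 1 palm left out, and 1 without mantled 2, mantled 4 or normal 3, of 5 against 4 palms. Full separation is easier to reach with 5 against 4 palms. No share over all stems is given for these settings, so nothing is read from these counts. The cause of the moves in either count was not tested. The differences in read share kept their sign, with a p over 0.05, under every alternative run: -3.78 to -0.321 percentage points for the 100 stems and -2.08 to -0.337 for the 10 highest with 1 palm left out. The median CV was 0.460 over 200 stems and 0.376 to 0.425 with 1 palm left out, the count in every palm's 100 highest 23 to 25, and the count with a 10-fold range 21 to 26. The median log2 difference was -0.16 to -0.04 with 1 palm left out. Plain library sizes moved the median of all stems to 0.09.

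Of 22 named stems, 13 changed sign in 29 of 352 fits, each above the adjusted threshold. With limma-voom, which weighted normal 5 at 0.319, the log2 differences were 0.28 for maker-p5_sc00001-augustus-gene-87.59, 0.034 for p5_sc00001_cds_65, 0.15 for p5_sc00039_cds_316, 0.36 for p5_sc00059_cds_145, 0.46 for maker-p5_sc00062-augustus-gene-13.52, 0.64 for p5_sc00058_cds_13, 0.10 for p5_sc00001_cds_1887, 0.12 for maker-p5_sc00019-snap-gene-51.59, 0.038 for p5_sc00003_cds_326 and 0.0012 for p5_sc00038_cds_201. With plain library sizes they were 0.053, 0.011 and 0.069 for maker-p5_sc00019-snap-gene-51.59, p5_sc00003_cds_326 and snap_masked-p5_sc00148-processed-gene-0.23. With 1 palm left out the ranges were -0.26 to 0.086 for maker-p5_sc00019-snap-gene-51.59, -0.16 to 0.012 for p5_sc00003_cds_326, -0.11 to 0.10 for p5_sc00033_cds_6, -0.14 to 0.044 for snap_masked-p5_sc00148-processed-gene-0.23 and -0.056 to 0.42 for p5_sc00217_cds_14. No paired analysis was possible because the numbers 1 to 5 only name palms within a phenotype, in accession order, and tie no mantled palm to a normal one. On depth, each abundant stem had at least 119 reads in every palm.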

Other observations

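One stem of 15 or more units was abundant enough to have entered the list. Stem p5_sc00103_cds_125, with 16 units, would have ranked 48th, with 1262 ± 355 plain CPM in mantled and 1382 ± 747 in normal palms (SD, n = 5 each) and a range of 619 to 2249 CPM. Its log2 difference was -0.23 (standard error 0.42), and its edgeR adjusted p was 0.9999.

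Of the 269 stems among the 100 highest of some palm, 169 were not on the list. One of those just below the list, p5_sc00128_cds_33, had 38.0 to 5061 plain CPM over the palms.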
